A study of Rattus norvegicus with 12 samples.

Results

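Expression of 10 circadian clock genes was followed in the injured pubocaudalis muscle of postpartum rats: Arntl, Clock, Npas2, Per1, Per2, Per3, Cry1, Nr1d1, Nr1d2 and Dbp. The genes were chosen by name from a table of 30206 genes, and all 10 were found and passed the filter on low counts that left 14599 genes for testing. Arntl is listed there under its current symbol, Bmal1. The question put to these genes was whether the clock, which moves with the hour of tissue collection and with feeding, stood at the same place in lactating and non-lactating animals.

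The clock of a cell is a loop of transcription factors that inhibit their own production. The proteins made by Arntl, Clock and Npas2 pair up and switch on the Per and Cry genes, Nr1d1, Nr1d2 and Dbp through E-box sequences. PER and CRY proteins then block that activator pair, and the REV-ERB proteins made by Nr1d1 and Nr1d2 hold down Arntl, so that over a day Arntl peaks when Nr1d1 and Dbp are near their lowest. Skeletal muscle has such a clock of its own, and its phase responds to feeding, activity and glucocorticoid hormones.

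All animals were 3-month-old female Sprague-Dawley rats that underwent simulated birth injury (SBI), a distension of the vagina by balloon, on day 20 of pregnancy. Lactating rats (+ Lac) kept their litters, non-lactating rats had the pups taken away after birth, the assignment was randomized, and the muscle was taken 1 or 3 weeks after injury, giving the non-lactating groups 1wk SBI and 3wk SBI and the lactating groups 1wk SBI + Lac and 3wk SBI + Lac. RNA was sequenced in 3 libraries a group, and each library was a pool of RNA from 2 rats, so a library shows the mean of a pair of animals. Every group carried the injury, and no uninjured muscle was sequenced among the samples analysed here. The hour of tissue collection, the light cycle and the feeding state were not given in the sources used here.

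Libraries held between 10082734 and 75634391 counts, and the 3-week groups spanned the widest range (10082734 to 75634391 in 3wk SBI). The member with the fewest counts was Npas2, with 28 in its lowest library, and the other members had at least 82.22 counts in every library. Levels are given as normalized CPM, the reads of a gene relative to the library total, after scaling of each library by the trimmed mean of M-values, and levels of different genes are not compared because gene length was not taken into account. The 1-week columns held whole counts and the 3-week columns held decimals, so time and the way reads were counted cannot be told apart in comparisons between weeks. Defining markers of skeletal muscle were abundant in every library, with a summed level of 71809 to 182001 normalized CPM for the 7 of 8 myofiber markers that could be matched. In bulk muscle, fewer cells of a type and less RNA per cell cannot be told apart.

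The control sequences of 3 members are shown because Per2 and Nr1d1 were the members that passed the test in a comparison and Arntl lies on the opposite side of the loop. RefSeq promoters (GRCr8) of 300 bases, of which 250 lie before the transcription start, were found for 9 of the 10 members. Each stretch below is written 5′ to 3′ on the strand of the gene and lies before the start, with matches to the searched motifs in capitals. Motifs were searched on both strands as the E-box CACGTG, the related sequence CACGTT, the D-box TTATGTAA or TTACGTAA bound by DBP and NFIL3, the element (RORE) bound by REV-ERB and ROR proteins, the glucocorticoid receptor sequence ACANNNTGT and the cAMP element TGACGTCA.
Per2, chr9:99497030-99497205, minus strand: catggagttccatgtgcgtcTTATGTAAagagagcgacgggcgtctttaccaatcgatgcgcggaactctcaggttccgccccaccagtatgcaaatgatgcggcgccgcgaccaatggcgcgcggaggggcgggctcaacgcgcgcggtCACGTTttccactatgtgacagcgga
Nr1d1, first start, chr10:84231961-84232006, minus strand: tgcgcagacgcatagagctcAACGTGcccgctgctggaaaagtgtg
Nr1d1, second start, chr10:84229620-84229665, minus strand: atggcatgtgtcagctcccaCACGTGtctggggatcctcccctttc
Arntl, chr1:176766289-176766327, plus strand: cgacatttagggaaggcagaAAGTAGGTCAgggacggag

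Per2 held a D-box 192 bases and a CACGTT sequence 62 bases before its start, Nr1d1 an E-box 191 bases before its second start and CACGTT, read on the other strand, 174 bases before its first start, and Arntl a REV-ERB and ROR element 19 bases before its start. Among all 33469 promoters, 6.42% held the E-box, 4.83% CACGTT, 1.01% the D-box and 1.63% the REV-ERB and ROR element. No member with a promoter other than Per2, Nr1d1 and Arntl held any of these motifs in the window. The glucocorticoid receptor sequence, in 6.86% of all promoters, occurred in those of Clock and Nr1d1, in both after the start, and the cAMP element, in 1.83% of all promoters, occurred in none of the 9. A match is a run of letters in this window and not a shown binding site.

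Among the activators, Arntl was measured at 8.89, 7.91 and 3.94 normalized CPM in replicates 1, 2 and 3 of 1wk SBI, an order kept below, and at 8.79, 8.71 and 7.02 with lactation. At 3 weeks it was at 10.4, 10.3 and 8.17 without lactation and at 14.1, 8.13 and 9.01 with lactation. The lowest and the highest of the 12 values differed 3.58-fold, and the lowest was replicate 3 of 1wk SBI. Clock, the partner of ARNTL, was the steadiest activator, at 40.6, 45.9 and 36.6 without and 46.8, 40.2 and 37.9 with lactation at 1 week, and at 54.3, 51.5 and 41.7 without and 50.8, 44.0 and 46.3 with lactation at 3 weeks. Its 4 groups overlapped in every comparison.

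Npas2, which can stand in for CLOCK, had a pattern unlike that of Clock. At 1 week it was at 3.86, 3.98 and 2.46 normalized CPM without and 5.05, 1.70 and 5.40 with lactation. At 3 weeks it was at 7.94, 6.69 and 5.64 without and 4.14, 2.89 and 3.08 with lactation. All 3 libraries of 3wk SBI lay above the 9 others.

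Of the Per genes, whose proteins form the inhibiting complex, Per1 was at 12.2, 17.3 and 30.4 normalized CPM without and 29.3, 21.7 and 24.7 with lactation at 1 week, and at 24.5, 25.8 and 33.5 without and 38.0, 49.5 and 36.3 with lactation at 3 weeks. The 3 libraries of 3wk SBI + Lac were the highest of the 12. Per2 was at 15.6, 16.6 and 25.4 without and 25.8, 26.5 and 21.1 with lactation at 1 week, and at 12.7, 15.6 and 17.1 without and 23.4, 24.7 and 30.3 with lactation at 3 weeks. Apart from replicate 3 of 1wk SBI, every non-lactating library lay below every lactating library for Per2. Per3 moved least, at 25.3, 25.2 and 29.8 without and 24.9, 30.8 and 24.5 with lactation at 1 week, and at 26.2, 25.9 and 25.0 without and 30.6, 33.2 and 32.6 with lactation at 3 weeks.

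Cry1, the partner of the PER proteins, was at 8.27, 9.75 and 10.4 normalized CPM without and 11.1, 15.0 and 10.4 with lactation at 1 week, and at 14.2, 8.98 and 8.69 without and 12.4, 10.9 and 13.3 with lactation at 3 weeks. At 3 weeks the groups overlapped, because replicate 1 of 3wk SBI was above all 3 lactating libraries.

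Nr1d1, which encodes REV-ERB alpha, had the widest range of all members, 5.87-fold between its lowest and highest library. At 1 week it was at 68.5, 73.8 and 86.8 normalized CPM without and 105, 36.7 and 92.9 with lactation. At 3 weeks it was at 195, 216 and 146 without lactation, above every other library, and at 107, 104 and 107 with lactation. Nr1d2, which encodes REV-ERB beta, ranged less, at 95.8, 99.8 and 135 without and 130, 109 and 124 with lactation at 1 week, and at 155, 156 and 141 without and 142, 159 and 171 with lactation at 3 weeks. All 6 libraries of 3 weeks were above all 6 libraries of 1 week for Nr1d2.

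Dbp, an output gene of the loop and a transcription factor that binds the D-box, was at 44.5, 62.6 and 92.4 normalized CPM without and 80.9, 36.5 and 69.8 with lactation at 1 week. At 3 weeks it was at 92.5, 108 and 85.2 without and 49.3, 85.2 and 101 with lactation. Its groups overlapped in every comparison, and within 3 of the 4 groups the highest library was more than 2 times the lowest.

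**Figure D1:**
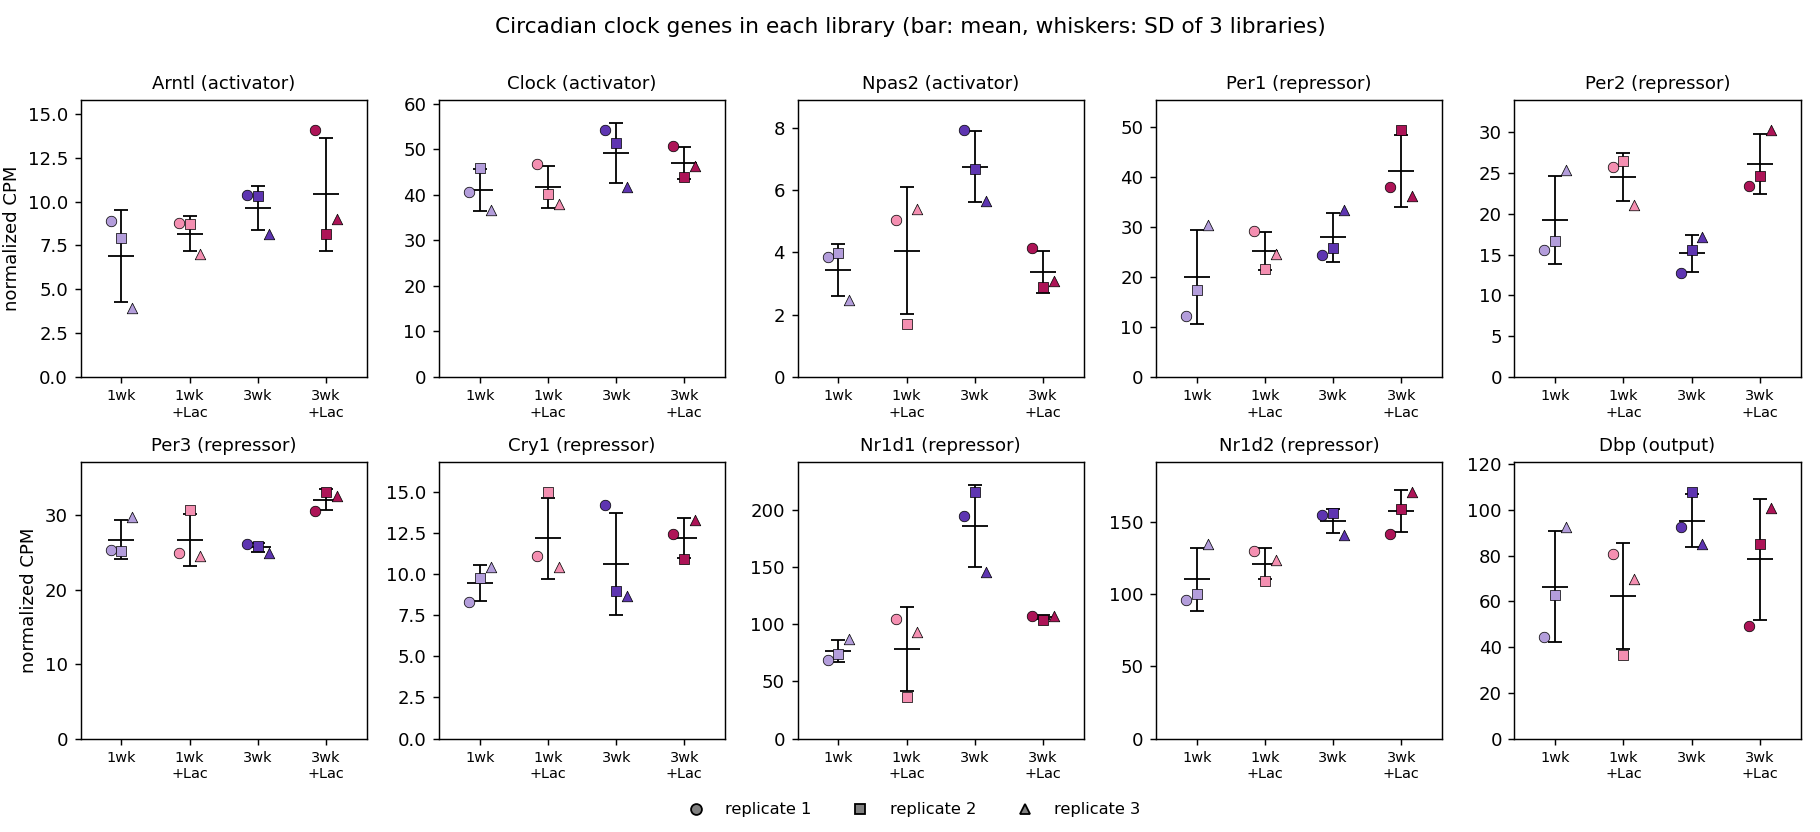
Normalized CPM (vertical axes, from 0) of the 10 clock genes in the 12 libraries, by group (horizontal axes); symbols are libraries, bars are means and whiskers SD of 3 libraries. Npas2 and Nr1d1 are highest in the 3 libraries of 3wk SBI, and Per1 in the 3 libraries of 3wk SBI + Lac.

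Spread within groups differed between members. The SD of log2 levels within groups was 0.53 for Npas2, 0.49 for Dbp, 0.45 for Nr1d1, 0.40 for Arntl and 0.39 for Per1, beside a median of 0.23 over all genes tested, whatever their level. It was 0.27 for Cry1, 0.26 for Per2, 0.17 for Nr1d2, 0.16 for Clock and 0.12 for Per3.

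A pair of 1-week libraries stood apart in the clock genes. Replicate 3 of 1wk SBI had the lowest Arntl and Clock of all 12 libraries and the highest Per1, Per2, Per3, Cry1, Nr1d1, Nr1d2 and Dbp of its group, and its 7 matched myofiber markers also had the highest summed level of that group (114368 normalized CPM, against 71809 and 79808). Replicate 2 of 1wk SBI + Lac had the lowest Npas2, Nr1d1 and Dbp of all 12 libraries and the highest Per2, Per3 and Cry1 of its group. Its summed myofiber markers were the highest of its group too (135381 normalized CPM, against 132468 and 112884). The mean absolute deviation of the members from their group means was 0.38 and 0.39 on the log2 scale in these 2 libraries, beside 0.20 over all genes in each, and between 0.10 and 0.26 in the other 10 libraries. Over genes with a mean log2 CPM above 2 it was 0.14 and 0.12 in these 2 libraries.

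Lactating and non-lactating muscle did not differ detectably in any of the 10 members at 1 week. None of the 10 members passed an adjusted p of 0.05 in edgeR's quasi-likelihood test with Benjamini-Hochberg adjustment (percent of all genes tested that passed: 0.569), none passed an unadjusted p of 0.05 (18.9% of all genes), and none had groups that did not overlap (28.4%). DESeq2 also called none. Log2 fold changes of lactating over non-lactating muscle lay between -0.09 ± 0.35 (SE) for Dbp and 0.36 ± 0.19 for Cry1, with a median of 0.18 beside 0.00 over all genes. Per2 had a log2 fold change of 0.35 (SE 0.18, adjusted p = 0.287) and Per1 of 0.34 (SE 0.28, adjusted p = 0.530). Without replicate 3 of 1wk SBI, Per1 and Per2 passed (0.77, adjusted p = 0.0335, and 0.60, adjusted p = 0.0291), and without both libraries that stood apart, an alternative chosen after seeing the data, 0 members passed.

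At 3 weeks Per2 was higher in lactating muscle, and it was the 1 member of 10 that passed the test (2.54% of all genes passed). Per2 averaged 15.1 ± 2.27 normalized CPM (SD, n = 3) without and 26.1 ± 3.70 with lactation, a log2 fold change of 0.75 (SE 0.18, edgeR adjusted p = 0.0448), or 1.69-fold. No member passed with the additional limit of an absolute log2 fold change above 1 (0.740% of all genes). The adjusted p of Per2 ranged from 0.00222 to 0.127 over 15 alternatives and passed in 8 of them. Leaving out any 1 of the 6 libraries ended the call (adjusted p of 0.0726 to 0.127, log2 fold changes of 0.66 to 0.86).

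Npas2, Per3 and Nr1d1 passed only before adjustment at 3 weeks, which with Per2 made 4 of 10 members (21.1% of all genes). Npas2 had a log2 fold change of -0.97 (SE 0.35, adjusted p = 0.138), with 6.76 ± 1.15 normalized CPM without and 3.37 ± 0.670 with lactation. Nr1d1 had a log2 fold change of -0.80 (SE 0.30, adjusted p = 0.158), with 185 ± 35.8 and 106 ± 1.57. Per3 had a log2 fold change of 0.32 (SE 0.11, adjusted p = 0.113) and Per1 of 0.56 (SE 0.28, adjusted p = 0.284). The groups did not overlap for these 4 genes and Per2, which is 5 of 10 members (22.3% of all genes), with the 3 Per genes higher and Npas2 and Nr1d1 lower in lactating muscle. Nr1d1 passed when only the 6 libraries compared were fitted (edgeR adjusted p = 0.0159) and in DESeq2 on all 12 libraries (adjusted p = 0.0439). The log2 fold changes of Arntl (0.14, SE 0.28), Clock (-0.06, SE 0.13), Cry1 (0.23, SE 0.20), Nr1d2 (0.06, SE 0.13) and Dbp (-0.28, SE 0.35) did not pass before adjustment.

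Markers of myofibers and of other cell types were also compared at 3 weeks, and their part in the clock gene differences was not tested. Summed myofiber markers (7 of 8 matched) ranged from 109560 to 147063 normalized CPM without lactation and from 160198 to 182001 with it. Of these 7, 5 were higher with lactation and 2 lower, and 0 passed the test. T cell markers (4 of 5 matched) ranged from 7.80 to 16.3 and from 2.53 to 4.63, fibroblast markers (5 of 5) from 2794 to 6360 and from 1689 to 2439, and macrophage markers (8 of 8) from 227 to 465 and from 204 to 260. Replicate 3 of 3wk SBI stood apart in both of the last lists and gave their highest sums, whereas the medians of that group were 2881 and 242, and the other macrophage sums of 3wk SBI lay within the lactating range. Of these markers 1 of macrophages and 1 of T cells passed the test, both lower with lactation (2.54% of all genes passed). Cd28 made up most of the T cell sums, at 12.7, 6.63 and 12.0 normalized CPM without and 3.26, 2.13 and 2.53 with lactation. Cd3e, Cd3d and Cd8a were at most 1.87 in these libraries, and the groups overlapped for each. Of the 4 milk genes Csn2, Csn1s1, Wap and Lalba, 3 were at 0 in every library of 3wk SBI, and their sum ranged from 0.220 to 30.9 in 3wk SBI + Lac. At 1 week, passed or not, 7 of 7 markers of myofibers and 4 of 4 erythroid markers were higher with lactation. Lower were 5 of 5 of fibroblasts, 4 of 4 of T cells and 7 of 8 of macrophages. Of these, 1 macrophage marker passed (0.569% of all genes), and their part in the 1-week values was not tested.

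The lactation effect at 3 weeks was set against that at 1 week by an interaction term. No member passed (0.00685% of all genes), and Npas2 alone had an unadjusted p under 0.05 (4.42% of all genes), with a difference of -1.21 on the log2 scale (SE 0.49, edgeR adjusted p = 0.999). The difference was -0.84 for Nr1d1 (SE 0.42), 0.40 for Per2 (SE 0.25) and 0.33 for Per3 (SE 0.15), each with an adjusted p of 0.999. DESeq2 called 0 members. A difference between the weeks in the lactation effect on Per2 was not detected.

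Nr1d1 was higher at 3 weeks than at 1 week without lactation, where time and the way of counting reads cannot be told apart. Nr1d1 was the 1 member of 10 that passed (5.05% of all genes), also with the limit on the fold change (1.46%). Its mean went from 76.4 ± 9.45 normalized CPM (SD, n = 3) to 185 ± 35.8, a log2 fold change of 1.28 (SE 0.30, edgeR adjusted p = 0.0358), or 2.43-fold. The call was lost without replicate 1 (adjusted p = 0.174) or 2 (adjusted p = 0.132) of 1wk SBI, and without replicate 1 (adjusted p = 0.102) or 2 (adjusted p = 0.130) of 3wk SBI, and over 16 alternatives the adjusted p ranged from 1.55e-09 to 0.174. Without replicate 3 of 1wk SBI, 3 members passed, namely Per1, Nr1d1 and Nr1d2, and without replicate 3 of 3wk SBI 2 passed, Nr1d1 and Nr1d2. Npas2 (0.95, SE 0.34, adjusted p = 0.127) and Nr1d2 (0.45, SE 0.13, adjusted p = 0.0637) passed before adjustment only, so that 3 of 10 members did (21.2% of all genes), and the groups of these 3 did not overlap (21.6%).

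The 3′ end of Nr1d1 overlaps Thra, a thyroid hormone receptor gene on the opposite strand, and whether counting used strand was not given in the sources used here. Thra was also higher at 3 weeks in the same comparison, by a log2 fold change of 0.63 (SE 0.11, edgeR adjusted p = 0.00793). It ranged from 40.2 to 49.3 normalized CPM in 1wk SBI and from 65.4 to 73.9 in 3wk SBI. The share of Nr1d1 counts that could come from Thra was not tested. Fibroblast markers ranged from 5727 to 8283 summed normalized CPM in 1wk SBI and from 2794 to 6360 in 3wk SBI, with 4 of 5 lower and 1 past the test, and erythroid markers from 242 to 414 and from 97.3 to 183, with 4 of 4 lower and 1 past the test. Myofiber markers ranged from 71809 to 114368 and from 109560 to 147063, with all 7 higher and 0 past the test. In this comparison 5.05% of all genes passed. The part of these cell types in the Nr1d1 value was not tested.

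With lactation, no member passed between 1 and 3 weeks (2.01% of all genes). Per1 (0.72, SE 0.28, edgeR adjusted p = 0.202), Nr1d2 (0.38, SE 0.13, adjusted p = 0.146) and Per3 (0.27, SE 0.11, adjusted p = 0.205) passed before adjustment, 3 of 10 members (18.1% of all genes), and the groups did not overlap for Per1 and Nr1d2, 2 of 10 (28.1%). Nr1d1 had a log2 fold change of 0.44 (SE 0.30, adjusted p = 0.471). DESeq2 called 0 members on all 12 libraries and 2 members, Per1 and Nr1d2, on the libraries compared. Each of these comparisons shares libraries with others, so their values are given side by side and not as separate evidence. Between weeks with lactation, 4 of 4 erythroid markers were lower and 3 passed the test (2.01% of all genes). Of fibroblast markers 4 of 5 were lower, and of myofiber markers 7 of 7 were higher, with 0 past the test in either list. The part of these cell types in the clock gene values was not tested.

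**Figure D2:**
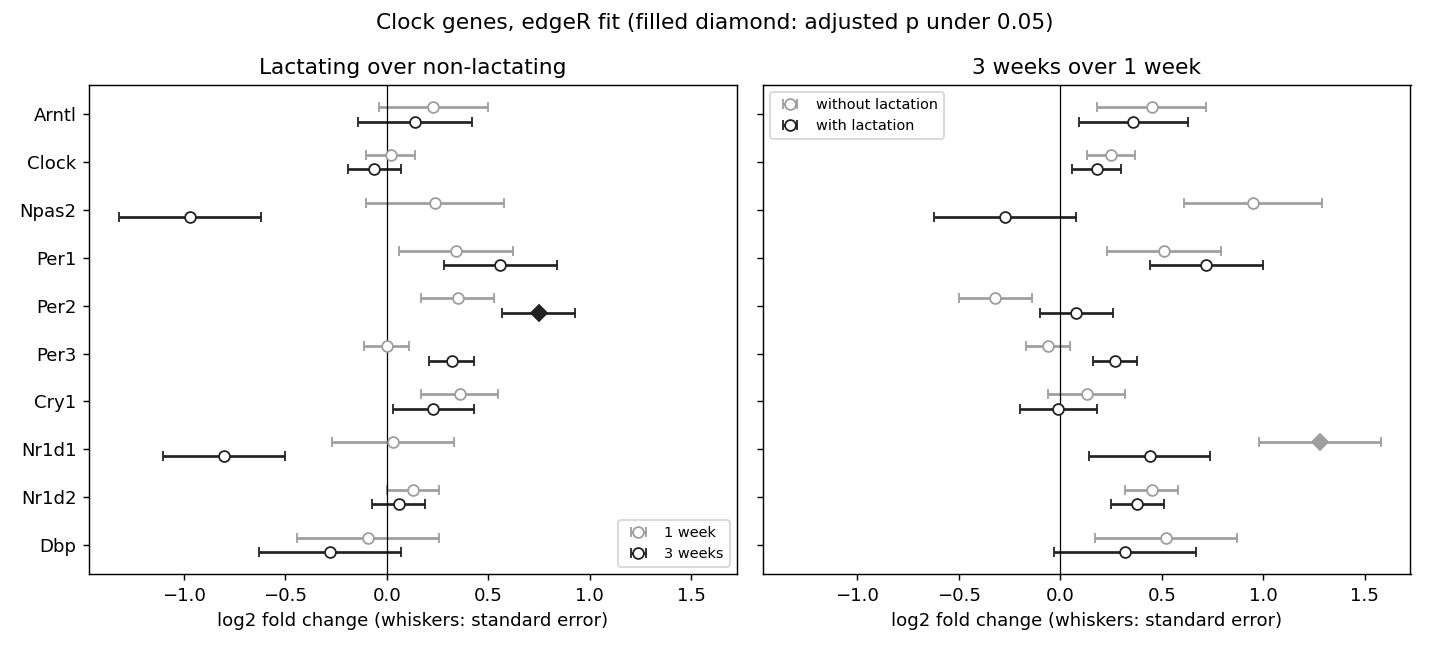
Log2 fold changes (horizontal axes) of the 10 clock genes from the edgeR fit, with lactation at each week on the left and 3 weeks over 1 week on the right; whiskers are standard errors and filled diamonds have an adjusted p under 0.05. The filled points are Per2 with lactation at 3 weeks (0.75) and Nr1d1 over time without lactation (1.28).

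The arms were summarized in each library by the mean of the activators (Arntl, Clock, Npas2) minus the mean of the repressors (Per1, Per2, Per3, Cry1, Nr1d1, Nr1d2), each gene on the log2 scale and centred on its mean of 12 libraries. This index has no test here and Dbp is in neither arm. The repressor genes are known to peak at different hours, Nr1d1 before Per2 and Cry1 later, so the index averages genes of unlike timing. At 1 week it was 0.47, 0.33 and -0.75 without and 0.09, -0.26 and 0.06 with lactation, and at 3 weeks 0.41, 0.32 and 0.08 without and 0.12, -0.47 and -0.41 with lactation. The groups overlapped at both weeks.

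At 1 week the mean index differed by -0.05 between lactating and non-lactating muscle, beside a pooled SD of 0.49. At 3 weeks it differed by -0.52, beside a pooled SD of 0.26, with the activator mean lower by 0.32 and the repressor mean higher by 0.20. Without Npas2 in the activator arm the 3-week difference was -0.18. Between weeks the index differed by 0.25 without lactation and by -0.21 with lactation, both smaller than the pooled SD.

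**Figure D3:**
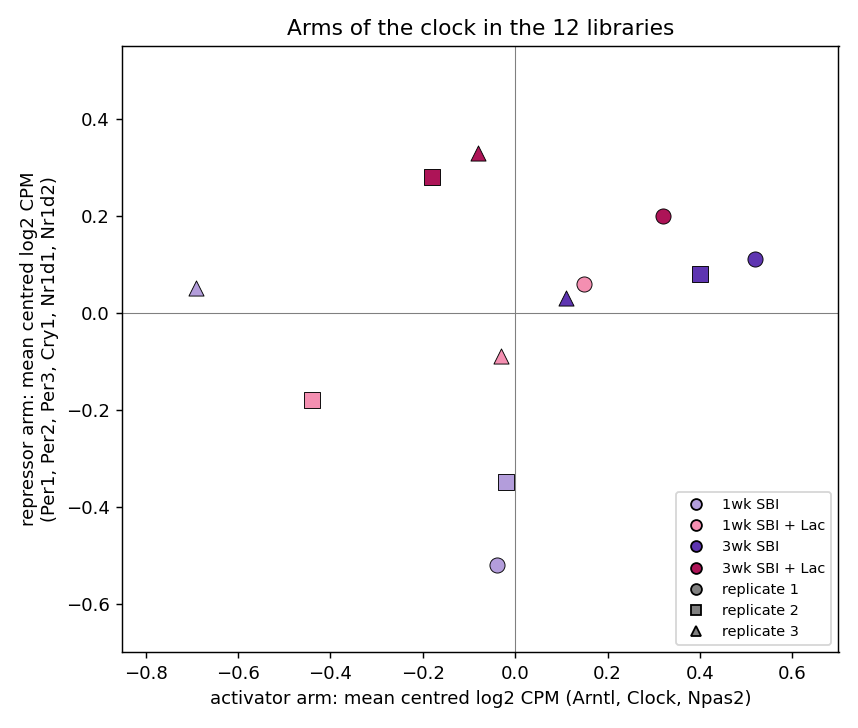
Mean centred log2 CPM of the activator arm (horizontal) and of the repressor arm (vertical) in the 12 libraries; colours are groups and symbols replicates. The 3 libraries of 3wk SBI lie right of 0 (0.11 to 0.52), and replicate 3 of 1wk SBI lies farthest left (-0.69).

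The members of 1 arm did not all have the same sign. With lactation at 3 weeks the log2 fold changes of Per1, Per2 and Per3 (0.56, 0.75 and 0.32) were positive and that of Nr1d1, which the same activators switch on, was negative (-0.80), of which Per2 passed the test. Over the 12 libraries the pattern of Nr1d1 was closest to those of Npas2 and Dbp among the members, with root mean square differences of 0.38 and 0.40 on the log2 scale, and farthest from that of Per2 (0.89), a description of libraries that share depth and group.

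**Figure D4:**
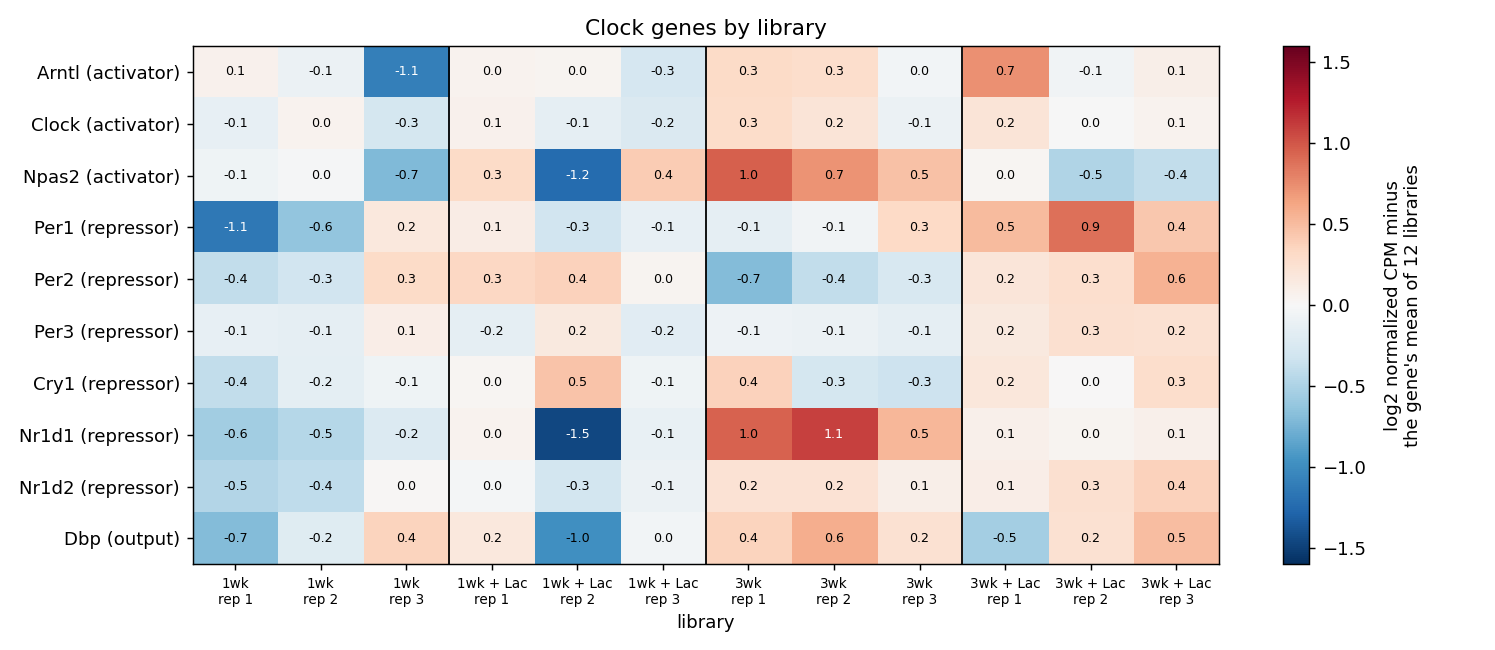
Log2 normalized CPM of each clock gene (rows) in each library (columns) minus the gene's mean of 12 libraries, in colour and as rounded values. The lowest values are Nr1d1 and Npas2 in replicate 2 of 1wk SBI + Lac, and Nr1d1 and Npas2 are above 0 in all 3 libraries of 3wk SBI.

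Other genes of the loop were counted from a list of 26, of which 25 were tested. At 1 week 1 passed higher and 0 lower with lactation (0.569% of all genes passed in either direction), at 3 weeks 2 higher and 0 lower (2.54%), and over time without lactation 3 higher and 0 lower (5.05%). With lactation none passed over time (2.01%), and none passed for the interaction (0.00685%). These shares over all genes are also the background for the counts of glucocorticoid, fasting and feeding, temperature and immediate early genes. The medians of the list, 0.11 and 0.12 with lactation at 1 and 3 weeks and 0.14 and 0.17 over time, stood beside medians of all genes between -0.02 and 0.00.

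Nfil3, the repressor that competes with DBP for the D-box, was the list's 1 gene that passed at both weeks. It was at 11.3, 10.9 and 12.6 normalized CPM without and 24.3, 25.2 and 21.3 with lactation at 1 week, and at 12.0, 11.6 and 8.37 without and 32.0, 25.8 and 25.3 with lactation at 3 weeks. All 6 lactating libraries lay above all 6 non-lactating libraries, with log2 fold changes of 1.02 (SE 0.14, edgeR adjusted p = 0.00998) and 1.42 (SE 0.15, adjusted p = 0.00143).

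Tef and Hlf, the other activators of the D-box, did not pass. Tef had log2 fold changes with lactation of 0.22 (SE 0.14) at 1 week and 0.49 (SE 0.14, edgeR adjusted p = 0.0749) at 3 weeks, and Hlf of 0.10 (SE 0.20) and -0.13 (SE 0.21). Wee1, a cell cycle kinase gene under clock control, was higher at 3 weeks, at 12.1, 14.7 and 19.8 normalized CPM with lactation and 8.37, 7.24 and 9.37 without (log2 fold change 0.86, SE 0.19, adjusted p = 0.0311).

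Rora encodes an activator that competes with REV-ERB for the element of Arntl. Rora was higher at 3 weeks than at 1 week without lactation, by a log2 fold change of 0.76 (SE 0.18, edgeR adjusted p = 0.0264). It was at 5.45, 7.89 and 7.85 normalized CPM at 1 week and at 12.6, 14.2 and 9.47 at 3 weeks. Its log2 fold changes with lactation were 0.58 (SE 0.18, adjusted p = 0.106) at 1 week and 0.43 (SE 0.18, adjusted p = 0.185) at 3 weeks. Bhlhe40, an E-box repressor, was also higher at 3 weeks without lactation, by 0.72 (SE 0.18, adjusted p = 0.0359), as was Nampt, an enzyme of NAD synthesis, by 0.72 (SE 0.16, adjusted p = 0.0210). In these comparisons between weeks, time and the way of counting reads cannot be told apart. Cry2 (-0.10 and -0.08), Bhlhe41 (-0.18 and -0.41) and Ciart (-0.31 and 0.26) did not pass with lactation at 1 or 3 weeks.

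**Figure D5:**
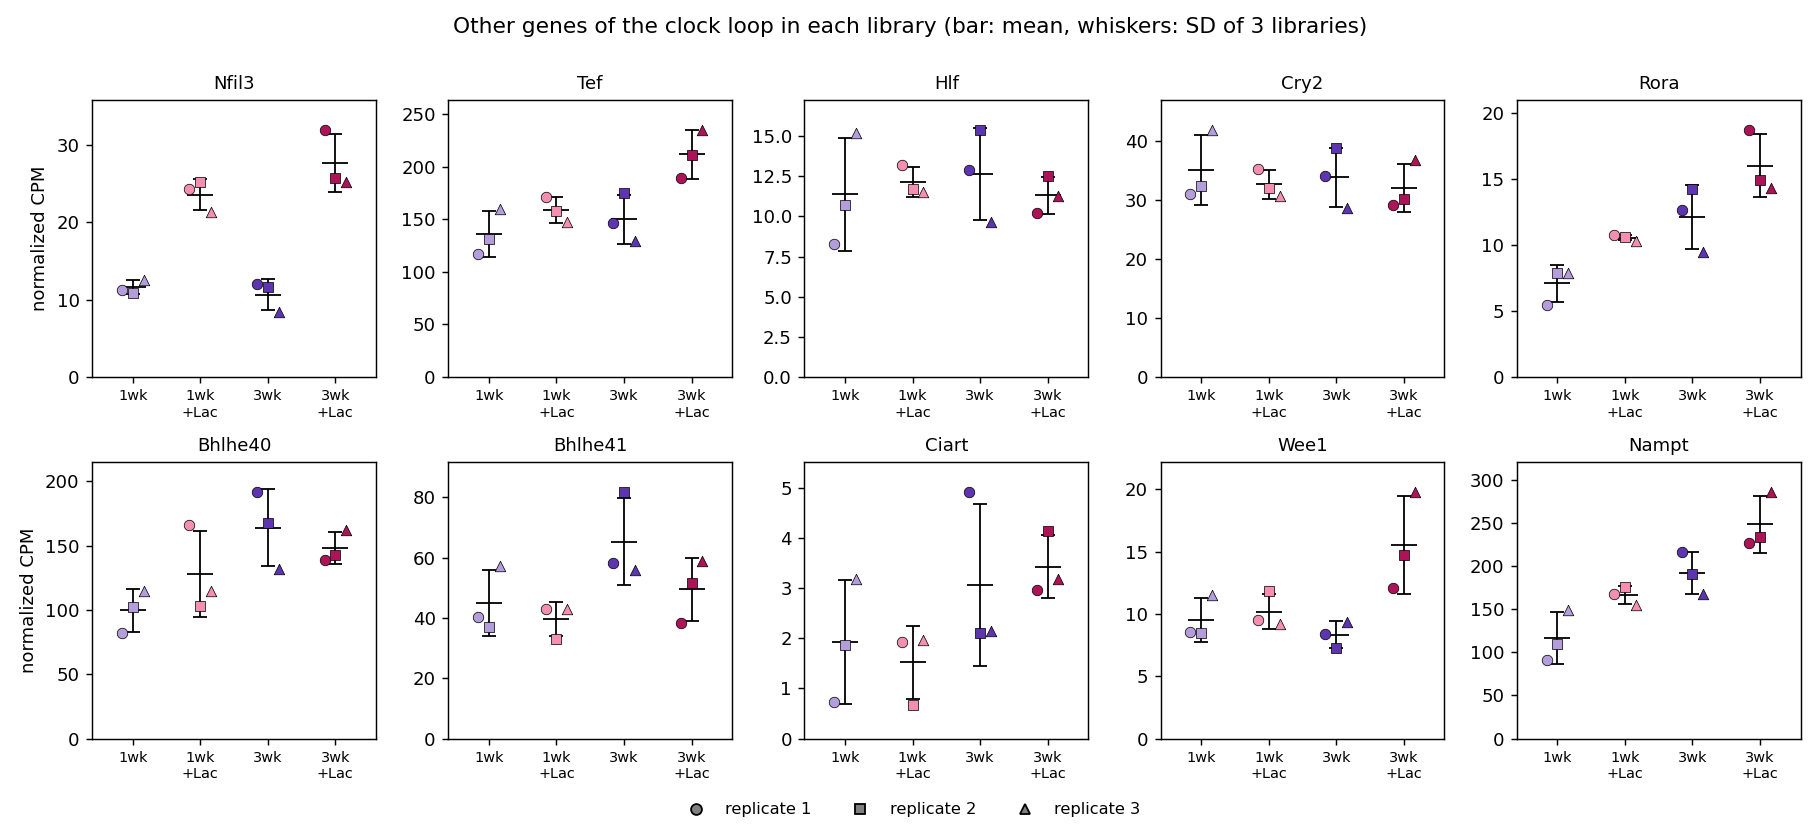
Normalized CPM (vertical axes, from 0) of 10 further genes of the clock loop in the 12 libraries, by group; symbols are libraries, bars are means and whiskers SD of 3 libraries. Nfil3 in lactating muscle lies between 21.3 and 32.0 and in non-lactating muscle between 8.37 and 12.6.

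Genes that respond to signals known to reset the muscle clock were counted beside the members. Of 16 glucocorticoid target genes, 4 passed higher and 0 lower with lactation at 1 week (Fkbp5 1.41, Glul 1.14, Cebpd 0.93 and Tsc22d3 0.82 on the log2 scale), and 4 higher and 0 lower at 3 weeks (Fkbp5 1.36, Glul 1.24, Cebpd 1.04 and Pik3r1 0.77), with list medians of 0.40 and 0.37. The list was not uniform: passed or not, 12 were higher and 4 lower at 1 week, and 11 higher and 5 lower at 3 weeks. Fkbp5, a chaperone of the glucocorticoid receptor, averaged 6.54 ± 0.502 normalized CPM without and 17.4 ± 5.32 with lactation at 1 week, and 15.2 ± 2.32 and 38.6 ± 7.41 at 3 weeks (SD, n = 3). Per1 and Per2, known glucocorticoid target genes outside this list, differed at 1 week by 0.34 and 0.35 without passing. At 3 weeks they differed by 0.56 and 0.75, of which Per2 passed (edgeR adjusted p = 0.0448). Over time without lactation 5 of the 16 were higher and 3 lower, the largest changes being in Mt2A (-2.12), Mt1 (-2.10), Fkbp5 (1.20) and Klf15 (1.13), and with lactation 3 were higher and 3 lower, led by Mt1 (-3.29), Mt2A (-2.16), Fkbp5 (1.15) and Sgk1 (-0.99).

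Of 17 fasting and feeding genes, none passed with lactation at 1 week and 3 were lower at 3 weeks, namely Angptl4 (-2.80), Scd (-2.11) and Cpt1a (-1.38). Passed or not, 14 were higher and 3 lower at 1 week (median 0.27), and 5 higher and 12 lower at 3 weeks (median -0.16). Angptl4 was at 1.58 at 1 week (edgeR adjusted p = 0.0745), and its level was low, at 0.391, 0.211 and 0.660 normalized CPM in 3wk SBI + Lac. Angptl4 and Cpt1a belong to fatty acid use and are known to increase in fasting, while Scd makes monounsaturated fatty acids and is known to increase with feeding. The list thus holds genes of both kinds, and its counts and medians do not by themselves give a feeding state. Over time 1 was higher and 1 lower without lactation (Irs2 0.66 and Scd -2.40), and 0 were higher and 3 lower with lactation (Angptl4 -3.32, Scd -3.27 and Cpt1a -0.71).

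Of 8 temperature genes, 1 passed with lactation at each week, beside 0.569% and 2.54% of all genes. It was the cold-inducible RNA-binding protein gene Rbm3, which was lower (-1.40, SE 0.14, edgeR adjusted p = 5.81e-04, and -1.08, SE 0.14, adjusted p = 0.00193). Cirbp, the other cold-inducible gene of the list and one that the clock is known to drive through body temperature, had values of -0.16 (SE 0.10) and -0.12 (SE 0.11) and did not pass. Over time without lactation 1 of the 8 passed (5.05% of all genes), Hsp90aa1, which was lower at 3 weeks by 0.49 on the log2 scale. Of 10 immediate early genes, none passed with lactation at 1 week (0.569% of all genes). At 3 weeks 3 were higher (2.54%), Atf3 (0.90), Btg2 (0.73) and Jun (0.67). None passed over time (5.05% without and 2.01% with lactation). The part of these signals in the values of the clock genes was not tested.

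The genes whose patterns over the 12 libraries were most like those of Arntl and Dbp were sought among 12309 genes by the root mean square difference of centred log2 levels. For Arntl they were Wars2 (0.25), Zkscan7 (0.26), Med31 (0.28), Paxbp1 (0.28) and Cpsf1 (0.28), none of them on the clock lists, beside an SD of 0.41 for Arntl itself. For Dbp, with an SD of 0.48, they were Trim13 (0.23), Syndig1 (0.23), Bhlhe41 (0.24), Ccdc122 (0.28) and Kazn (0.30), of which Bhlhe41 is a repressor of the clock loop.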

How the data were processed

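Poly(A) RNA of pubocaudalis muscle was sequenced in 12 libraries, 3 in each of 4 groups, each a pool of 2 rats. Per the labels, a stranded mRNA kit was used, and the submitters' processing notes name Salmon. Its version, the genome build and the annotation were not given in the sources used here. The authors deposited 1 table of 30206 genes. Its 1-week columns are deposited as raw read counts in whole numbers. Its 3-week columns are deposited as estimated counts with decimals, which were rounded to whole numbers for testing, whereas the planned test assumed whole counts. No value was normalized before deposit.

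Counts were tested with edgeR 4.0.16 (R 4.3.3; trimmed mean of M-values, filterByExpr, robust quasi-likelihood fit on all 12 libraries, Benjamini-Hochberg adjustment over 14599 genes), with 0.05 as the limit of the adjusted p. Counts past an absolute log2 fold change of 1 were added. Log2 levels used a prior count of 2. Alternatives were DESeq2 1.42.0, other normalizations and filters, thinning to equal depth, a replicate block and leaving out each library. The p-values measure the spread between pools of 2 rats.

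All 10 members are given in every library. Of the other lists, the text names genes past the adjusted p, at most the 4 largest changes per list and comparison, and Nfil3, Tef, Hlf, Cry2, Rora, Bhlhe40, Bhlhe41 and Ciart in any case (1 further gene of this rule is not reported here), besides the 5 genes most like Arntl and Dbp. Thra was added after its values were seen. Members and lists were chosen with earlier results of these data known. Marker lists of endothelial, adipocyte, erythroid, smooth muscle and Schwann cells were also summed: 0 of 4, 0 of 3, 0 of 4, 0 of 4 and 0 of 4 tested markers passed with lactation at 3 weeks (2.54% of all genes). Myh1 and 1 T cell marker could not be matched to a single row. Promoter sequences were taken from RefSeq (GRCr8); Cry1 had no entry.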

Additional observations from a re-analysis of the deposited data

How the results depend on the processing

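The number of clock genes past the test depended on the fit. For lactation at 1 week it was 0 to 2 when 1 library was left out, with 2 only without replicate 3 of 1wk SBI. For lactation at 3 weeks it was 0 with the limit on the fold change, 0 with upper-quartile normalization, 2 in DESeq2 on all 12 libraries, 4 in DESeq2 and 2 in edgeR on the libraries compared, and 0 to 0 when any 1 library was left out. Over time without lactation it was 0 with no filter on low counts (Nr1d1 adjusted p = 0.0739), 2 in DESeq2 on all 12 libraries, 2 in DESeq2 on the libraries compared, 0 to 3 when 1 library was left out, and 3 without both 1-week libraries that stand apart, which was chosen after seeing the data. Over time with lactation it was 2 in DESeq2 and 2 in edgeR on the libraries compared. The index at 3 weeks was -0.18 without Npas2. Over all genes the number past the test, to which the members are compared, was 83 for lactation at 1 week (2 to 1418 over the alternatives), 371 at 3 weeks (48 to 1103), 1 for the interaction (1 to 15), 737 over time without lactation (119 to 2099) and 293 with lactation (40 to 1388).

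With a replicate block, 0 members passed over time without lactation (Nr1d1 adjusted p = 0.0578) and 0 passed at 1 week, where Nr1d1 was at -0.01; Per2 still passed at 3 weeks. Replicate numbers did not pair the libraries: over 18 pairs the correlation of deviations ranged from -0.23 to 0.20, with 2 over 0.1.

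Directions that turned were of small, uncalled values. With lactation at 1 week, Clock was at -0.01 with a minimum of 10 counts in every library and Npas2 at -0.10 after thinning, and without both libraries that stand apart Arntl was at -0.09, Clock at -0.03 and Dbp at 0.49. Leaving out 1 library gave -0.04 to 0.45 for Arntl, -0.08 to 0.11 for Clock, -0.03 to 0.60 for Npas2, -0.12 to 0.08 for Per3, -0.24 to 0.37 for Nr1d1 and -0.32 to 0.22 for Dbp. At 3 weeks it gave -0.16 to 0.32 for Arntl and -0.17 to 0.02 for Clock. For the interaction it gave -0.39 to 0.18 for Arntl, -0.19 to 0.02 for Clock, -0.22 to 0.47 for Per1, -0.27 to 0.09 for Cry1, -0.24 to 0.02 for Nr1d2 and -0.51 to 0.05 for Dbp, and leaving out both libraries that stand apart gave 0.23 for Arntl and -0.31 for Per1. Over time without lactation, leaving out 1 library gave -0.10 to 0.02 for Per3 and -0.10 to 0.27 for Cry1, and leaving out both gave 0.02 for Per3. Over time with lactation, leaving out 1 library gave -0.63 to 0.00 for Npas2, -0.01 to 0.16 for Per2 and -0.11 to 0.17 for Cry1, and Cry1 was at 0.17 without both and at 0.00 with RLE normalization, after thinning and in DESeq2 on all 12 libraries.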
